A study of Rattus norvegicus with 12 samples.

Results

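The 48 genes described here run glycolysis, glycogen turnover, lactate exchange and pyruvate entry into mitochondria, and were followed in rat heart. They were chosen by symbol from a list in 9 roles, with earlier results of these data known. Of the 48, 47 had a row in the deposited table of 32623 genes (Pgd did not), and 46 passed the filter on low counts. The gene left out by the filter, Pfkfb1, had 0 to 7 counts per library. RNA from hearts of male Sprague Dawley rats, aged 5 weeks and weighing 130 to 150 g at the start, was sequenced in 12 libraries, 4 in each of 3 groups. The CTRL group breathed normal air throughout its 8 weeks. The SU_HX model combined SU-5416, which blocks VEGF receptors and was given at 20 mg/kg, with hypoxia (10% oxygen) for 3 weeks and normoxia for 2, and ended with vehicle over 3 weeks. The Chrysin group went through the same model, then received 100 mg/kg daily of chrysin, a flavone made by plants, over those last 3 weeks. SU-5416 and hypoxia are thus common to both model groups, and in which order their hypoxic and normoxic weeks came is not clear from the labels. Neither the heart region nor whether each library is a separate animal is given there, so the p-values reflect the spread among libraries, which may be technical. Each library is named by its group and replicate number, as in SU_HX rat 1.

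Glycolysis splits glucose into pyruvate in the cytosol. Pyruvate then leaves the cell as lactate or enters mitochondria, where the pyruvate dehydrogenase complex turns it into acetyl-CoA. Several steps are run by alternative genes: a form typical of striated muscle (Slc2a4, Pfkm, Pgam2, Eno3, Pygm, Phkg1) and a form found in many tissues (Slc2a1, Pfkl, Pfkp, Pgam1, Eno1). The adult heart burns mostly fatty acids, takes up glucose through the insulin-responsive transporter Slc2a4, and keeps a glycogen store that phosphorylase breaks down.

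Slc2a4, Pfkm, Pgam2, Eno3, Pygm and Phkg1, the muscle-type forms named above, all fell in SU_HX hearts, while a small set of other forms rose. Of the other members with a muscle form, Gys1 and Phka1 fell, but Hk2, Aldoa and Ldha were not called. Pygb, the brain form of glycogen phosphorylase, fell as well. Of the 46 members tested, 4 rose (Pfkp, Pfkl, Slc16a3 and Pdk3) and 15 fell in SU_HX against CTRL, and 27 were not called. Across all 12304 genes tested, 16.0% rose and 14.7% fell, 30.7% in either direction. The median member change was -0.56 log2, against 0.07 for all genes tested. The groups' levels did not overlap for 4 members that were higher and 17 that were lower, against 15.9% and 16.8% of all genes. Calls are edgeR quasi-likelihood tests with Benjamini-Hochberg adjusted p under 0.05 over all genes tested, errors of log2 fold changes are standard errors, and levels are CPM, the usual counts scaled to library size, here with TMM factors.

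**Figure D1:**
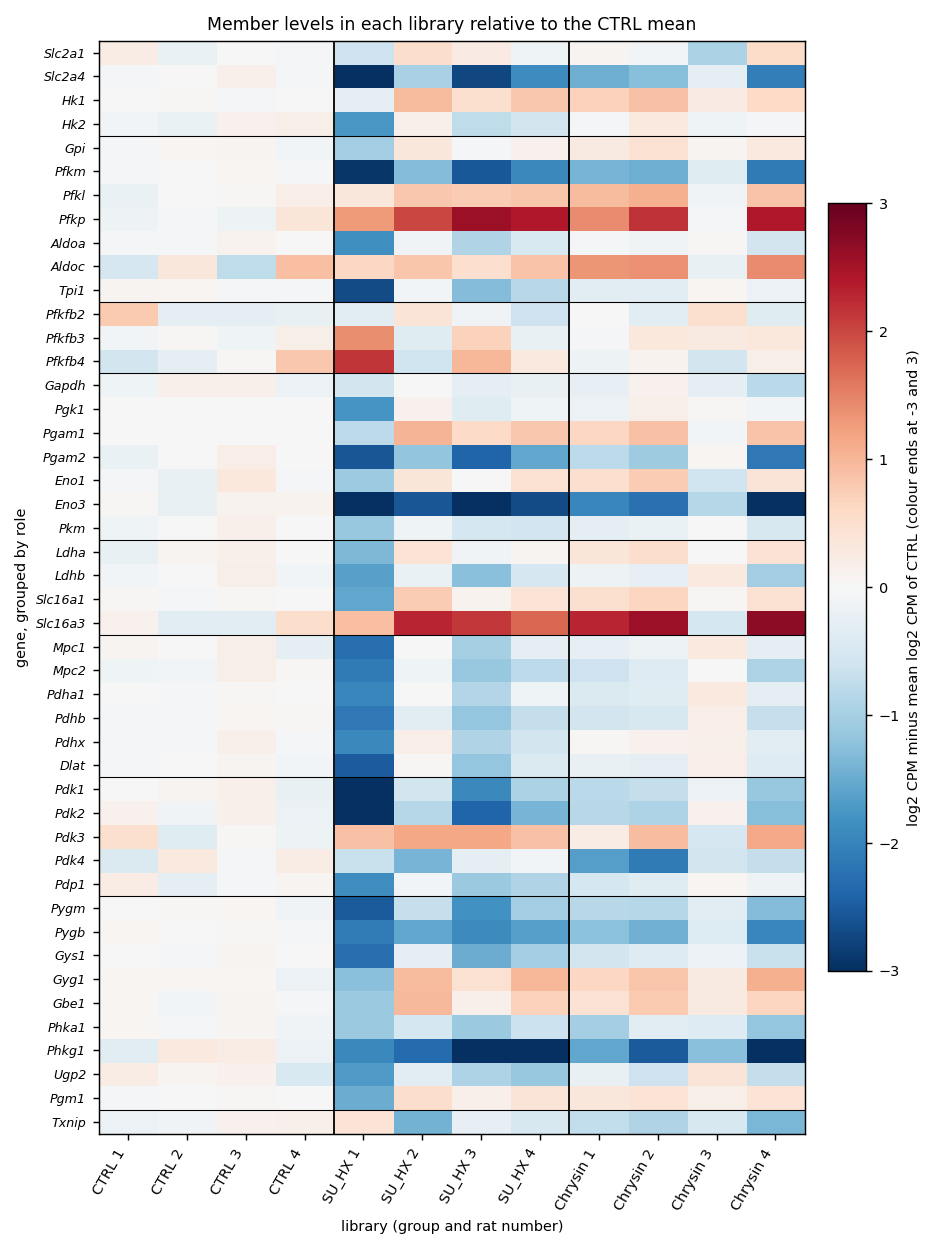
Each row is 1 of the 46 members tested, grouped by role, and each column 1 library; colour is log2 CPM minus the mean log2 CPM of the 4 CTRL libraries. Eno3, Pfkm, Slc2a4 and Phkg1 are blue in every SU_HX library and Pfkp and Slc16a3 are red, while SU_HX rat 1 is the lowest of its group in 37 rows and Chrysin rat 3 is the nearest to CTRL in 26.

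Total counts per library ran from 3997306 to 6009798. SU_HX rat 1 stood apart: introns held 63.4% of its unique reads (42.6 to 50% elsewhere), and it had the lowest level of all 12 libraries for 31 of the 46 members. Without it, 9 members rose and 14 fell, against 16.5% and 17.1% of all genes (33.6% in either direction). Hk1, Pgam1, Gyg1, Gbe1 and Pgm1 were then among those that rose and Tpi1 among those that fell, while Mpc2 and Pdp1 were not called. Chrysin rat 3 was the nearest to the CTRL mean of the 8 model libraries for 26 of the 46 members. Without both libraries, 10 rose and 17 fell, against 17.9% and 18.7% (36.6%). Other single libraries also moved the count: 6 rose and 23 fell without SU_HX rat 2 (38.3% of all genes called), 1 and 9 without SU_HX rat 3 (20.0%), 1 and 11 without CTRL rat 2 (22.3%), and 1 and 10 without CTRL rat 3 (21.3%). The median member change was -0.365 log2 without SU_HX rat 1 (0.001 for all genes) and -0.766 without SU_HX rat 2 (0.083). In bulk tissue, fewer cells of a type and less RNA per cell cannot be told apart. The 9 cardiomyocyte markers in the table summed to 40198.0 to 43334.2 CPM in CTRL, 14243.2 to 36679.5 in SU_HX and 26616.4 to 44259.4 in Chrysin; 2 fell and 0 rose in SU_HX, and none was at 0. The 8 fibroblast markers summed to 3744 to 5970, 5962 to 22273.3 and 4473 to 10442.7 CPM, with 6 that rose. The 10 macrophage markers summed to 157 to 224, 457 to 920.4 and 257 to 598 CPM, with 10 that rose. The 7 atrial markers summed to 43.4 to 84.1, 1345 to 5881 and 147 to 7126 CPM, with 2 of the 5 tested that rose and 0 that fell. Most of that sum in the model groups was Nppa, the natriuretic peptide that overloaded ventricles also make. Myl4 ran from 0.858 to 1.34 CPM in CTRL and from 4.41 to 42.9 in SU_HX, and Bmp10 reached 0.222 and 15.2. The rest of the list overlapped between these groups. Myl7 ran from 0.576 to 53.2 CPM in CTRL and from 1.29 to 59.4 in SU_HX, and Nr2f1 from 3.17 to 6.65 and 3.19 to 6.96. Nr2f2 ran from 10.7 to 16.7 and 12.3 to 30.6 CPM, and Sln reached 0.222 and 2.13. The 5 erythroid markers in the table summed to 60.3 to 408, 1032 to 1948 and 399 to 2853 CPM, and all 4 tested rose in SU_HX and in Chrysin against CTRL. The 6 lung epithelium markers summed to 1.07 to 3.84, 12.9 to 63.2 and 6.11 to 17.7 CPM, and all 4 tested rose in SU_HX. The 6 endothelial markers in the table summed to 1060 to 1171, 1222 to 3139 and 1232 to 2260 CPM, with 1 that rose. The 7 adipocyte markers, mostly Fabp4, summed to 191.4 to 247.5, 128.1 to 780.1 and 139.2 to 298.5 CPM, and none was called. SU_HX rat 1 had the highest sum of all 12 libraries for both lists. Of the 3 skeletal muscle markers tested, 2 rose in SU_HX, while the summed CPM overlapped. Other marker lists are not given here. The part of these cell types in the changes below was not tested.

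Per kb of exon, the members spanned a wide range of levels. Ldhb was highest in CTRL at 2231 ± 205 CPM per kb (SD, n = 4), then Aldoa at 1545 ± 72.7. Eno3 was the 7th highest of the members in CTRL, the 29th in SU_HX and the 24th in Chrysin, and Pfkm the 9th, 22nd and 19th. Pfkp moved the other way, from 39th in CTRL to 28th in SU_HX, and was 37th in Chrysin.

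At glucose entry, Slc2a4, the insulin-responsive glucose transporter of muscle and fat, fell in SU_HX while the transporter of most tissues, Slc2a1, was not called. Slc2a4 stood at 355, 366, 410.4 and 359 CPM in CTRL, at 43.1, 191, 55.7 and 100.0 in SU_HX and at 136, 152, 306 and 88.4 in Chrysin. Every SU_HX library lay below every CTRL library, a 3.82-fold fall (log2 -1.93 ± 0.44, adjusted p = 0.00676). Slc2a1 had 27.1 ± 3.26 CPM in CTRL and 28.4 ± 9.23 in SU_HX (SD, n = 4 each), and its groups overlapped (log2 0.072 ± 0.28, adjusted p = 0.865). The hexokinases trap glucose as glucose 6-phosphate. Hk2, the insulin-responsive hexokinase of muscle, was not called (log2 -0.58 ± 0.29, adjusted p = 0.146), but was without SU_HX rat 2 (-0.94, adjusted p = 0.0105). Hk1, the hexokinase of many tissues, was at 185, 189.5, 182 and 187 CPM in CTRL and at 151, 357, 261 and 324 in SU_HX, where only rat 1 was below CTRL (log2 0.56 ± 0.23, adjusted p = 0.0855; 0.76 and adjusted p = 0.0043 without that rat).

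Phosphofructokinase is the main control point of glycolysis. Pfkm, the muscle form, fell in SU_HX, and the platelet and liver forms, Pfkp and Pfkl, rose. Pfkm stood at 761, 771, 812 and 763 CPM in CTRL, at 103, 316, 132 and 202 in SU_HX and at 297, 281, 601 and 177 in Chrysin. It fell 4.12-fold in SU_HX (log2 -2.04 ± 0.39, adjusted p = 0.00287), with no overlap. Pfkp stood at 19.1, 20.3, 19.1 and 27.2 CPM in CTRL, 51.7, 84.7, 127 and 112 in SU_HX and 57.1, 94.9, 20.3 and 113 in Chrysin. It rose 4.36-fold in SU_HX (log2 2.12 ± 0.42, adjusted p = 0.00352), again with no overlap; CTRL rat 4 was the highest of its group and Chrysin rat 3 lay within the CTRL range. Pfkl stood at 54.2, 61.6, 64.3 and 71.4 CPM in CTRL, 79.1, 109, 105 and 111 in SU_HX and 120.4, 130.4, 57.9 and 113 in Chrysin, and it rose 1.61-fold in SU_HX (log2 0.69 ± 0.22, adjusted p = 0.0298). With CTRL 1, 2 or 3 or SU_HX 3 or 4 left out, Pfkl was not called (adjusted p 0.0662 to 0.0873). Per kb of exon, Pfkm held 90.1, 89.2, 89.6 and 87.1% of the 3 genes' CPM in CTRL, 40.3, 58.0, 32.0 and 43.1% in SU_HX and 59.2, 51.4, 87.1 and 39.6% in Chrysin. The share was lower in 7 of the 8 model libraries than in any CTRL library, and in Chrysin rat 3 it was 87.1%, as in CTRL rat 4; the level of Pfkm lay below CTRL in all 8.

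The promoters of Pfkm, which fell, and Pfkp, which rose, are shown because this pair had the largest difference in log2 ratio of the 12 pairs compared below, 4.24 between SU_HX and CTRL. They come from RefSeq on build GRCr8, 250 bases before to 50 after the start of the gene, both on the plus strand, at chr7:131113849-131114148 and chr17:68639563-68639862. Capitals mark the letters searched for, ACGTG or GCGTG on either strand, the core of the site bound by hypoxia-inducible factors.
Pfkm: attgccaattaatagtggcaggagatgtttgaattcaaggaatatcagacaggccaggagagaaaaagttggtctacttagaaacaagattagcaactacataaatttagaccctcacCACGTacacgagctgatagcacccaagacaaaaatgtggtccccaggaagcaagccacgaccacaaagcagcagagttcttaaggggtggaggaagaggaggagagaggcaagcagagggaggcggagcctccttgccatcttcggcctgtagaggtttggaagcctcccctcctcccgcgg
Pfkp: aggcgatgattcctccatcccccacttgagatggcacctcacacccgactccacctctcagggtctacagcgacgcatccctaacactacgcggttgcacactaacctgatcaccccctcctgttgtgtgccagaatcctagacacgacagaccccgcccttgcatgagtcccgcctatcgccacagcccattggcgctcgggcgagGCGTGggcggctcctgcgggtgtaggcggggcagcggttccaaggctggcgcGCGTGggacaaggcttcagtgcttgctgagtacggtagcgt
Pfkm holds 1 ACGTG, written here as its reverse complement, and Pfkp 2 copies of GCGTG. A match is a description of the letters and not a measured site. In the table's own coordinates, whose build is not given in the sources used here, Pfkm lies on chromosome 7 from 139685573 to 139722132 with 26 exons, and Pfkp on chromosome 17 from 68511064 to 68559471 with 23 exons.

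No other upper step was called on all libraries. Gpi, which makes fructose 6-phosphate, was not called (log2 -0.062 ± 0.24, adjusted p = 0.865). Aldoa, the aldolase of muscle, had a mean of 2487.2 ± 117 CPM in CTRL and 1540.2 ± 689 in SU_HX (SD, n = 4 each). All 4 SU_HX values lay below CTRL, yet Aldoa was not called (log2 -0.69 ± 0.31, adjusted p = 0.108), and was without SU_HX rat 2 (-0.96, adjusted p = 0.0273). Aldoc, the aldolase of brain, reached at most 6.20 CPM in every library and was not called. Tpi1, which interconverts the triose phosphates, was not called (log2 -0.95 ± 0.36, adjusted p = 0.0624) but was without SU_HX rat 1 (-0.65, adjusted p = 0.0412) and without SU_HX rat 2 (-1.43, 0.00402), and by DESeq2 (0.0415) and limma-voom (0.0359). Only 3.38% of its exon reads were unique to it, so its level is uncertain. The phosphofructokinase-2 enzymes set the level of fructose 2,6-bisphosphate, an activator of phosphofructokinase. None of the 3 tested, Pfkfb2, the main heart form, Pfkfb3, the inducible form, and Pfkfb4, was called. Pfkfb3 had 41.8 ± 4.26 CPM in CTRL and 61.2 ± 35.6 in SU_HX (SD, n = 4 each) (log2 0.55 ± 0.30, adjusted p = 0.19), with SU_HX rat 1 highest at 109 CPM. Without SU_HX rat 2, Pfkfb3 (0.75, adjusted p = 0.0436) and Pfkfb4 (1.26, 0.0483) were called.

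**Figure D2:**
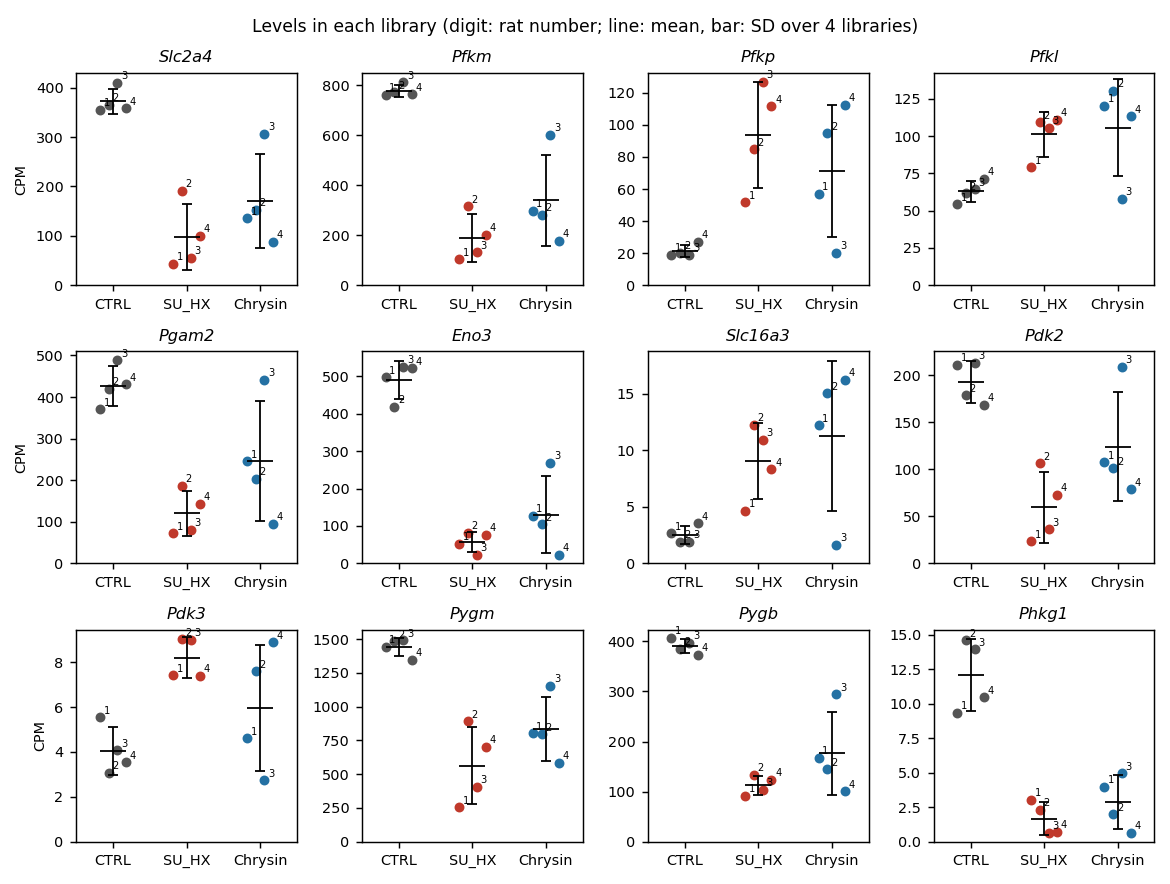
Each panel is 1 member, each point 1 library with its rat number, the vertical axis CPM, and the lines the mean and SD of 4 libraries. Slc2a4, Pfkm, Pgam2, Eno3, Pdk2, Pygm, Pygb and Phkg1 are lower in all 4 SU_HX libraries than in any CTRL library, and Pfkp, Pfkl, Slc16a3 and Pdk3 higher.

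In lower glycolysis the muscle forms of mutase and enolase fell while their widely expressed partners were not called. Eno3, the muscle enolase, had the largest fall of the members tested. It stood at 497, 418, 525 and 522 CPM in CTRL, at 52.4, 81.7, 22.5 and 75.6 in SU_HX and at 127, 104, 269 and 22.4 in Chrysin. Every model library was below CTRL, Chrysin rat 3 least so, and the fall in SU_HX was 8.44-fold (log2 -3.08 ± 0.57, adjusted p = 0.00274). Eno1, the enolase of most tissues, had 328 ± 54.9 CPM in CTRL and 336 ± 133 in SU_HX (SD, n = 4 each) (log2 0.033 ± 0.33, adjusted p = 0.949), with SU_HX rat 1 lowest at 152 CPM. Of the Eno1 exon reads, 14.8% were unique to it, so its level is uncertain. Pgam2, the muscle phosphoglycerate mutase, stood at 371, 419, 488 and 431 CPM in CTRL, 71.9, 186, 80.8 and 143 in SU_HX and 246, 203, 441 and 95.5 in Chrysin. It fell 3.54-fold in SU_HX, without overlap (log2 -1.82 ± 0.40, adjusted p = 0.00579). Pgam1, the form of other tissues, was close to constant in CTRL at 181, 181, 182 and 183 CPM. In SU_HX it stood at 106, 369, 272 and 321 CPM, above CTRL in 3 of 4 rats (log2 0.55 ± 0.31, adjusted p = 0.197). Without SU_HX rat 1 it was called (0.82, adjusted p = 0.00889).

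The promoters of the mutase pair are given because the searched letters differ between the form that fell and the one not called. They are taken from the same RefSeq table, at chr1:250672902-250673201 on the plus strand and chr14:84897825-84898124 on the minus strand. Capitals mark ACGTG or GCGTG on either strand in Pgam1 and TATAAA, the TATA box, in Pgam2.
Pgam1: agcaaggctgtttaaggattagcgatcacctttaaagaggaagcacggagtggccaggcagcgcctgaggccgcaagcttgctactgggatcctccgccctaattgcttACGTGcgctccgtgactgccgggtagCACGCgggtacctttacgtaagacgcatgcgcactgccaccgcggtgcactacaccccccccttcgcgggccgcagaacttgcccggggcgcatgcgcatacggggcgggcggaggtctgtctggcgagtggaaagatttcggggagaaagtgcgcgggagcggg
Pgam2: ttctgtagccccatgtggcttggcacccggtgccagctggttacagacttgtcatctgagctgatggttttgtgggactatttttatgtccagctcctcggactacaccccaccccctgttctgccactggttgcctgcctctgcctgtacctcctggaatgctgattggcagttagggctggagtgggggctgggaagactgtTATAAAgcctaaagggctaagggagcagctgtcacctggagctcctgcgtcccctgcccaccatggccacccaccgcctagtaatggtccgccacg
Pgam1 holds 1 ACGTG and 1 GCGTG, the latter as its reverse complement, and no TATAAA. Pgam2 holds TATAAA once, from position -46, and neither of the other motifs. In the table's coordinates Pgam1 lies on chromosome 1 from 261158261 to 261165808 and Pgam2 on chromosome 14 from 86044969 to 86047162.

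The remaining lower steps were not called. Pgk1, phosphoglycerate kinase, had 609 ± 7.24 CPM in CTRL and 468 ± 208 in SU_HX (SD, n = 4 each), with SU_HX rat 1 lowest at 178 CPM. Gapdh, the dehydrogenase often used as a reference gene, had 193 ± 22.5 CPM in CTRL and 162 ± 26.5 in SU_HX (SD, n = 4 each) (log2 -0.26 ± 0.20, adjusted p = 0.339). Only 0.813% of Gapdh exon reads were unique, so its level is uncertain. Pkm, pyruvate kinase, was lower in all 4 SU_HX libraries than in CTRL but not called (log2 -0.55 ± 0.20, adjusted p = 0.0549), with 28.2% of its reads unique. It was called without SU_HX rat 2 (-0.72, adjusted p = 0.0123) and by DESeq2 (0.023), limma-voom (0.0392) and on unique reads (0.0461).

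For lactate, the exporter Slc16a3 rose and the dehydrogenases were not called. Slc16a3, a monocarboxylate transporter of cells that release lactate, stood at 2.67, 1.92, 1.93 and 3.54 CPM in CTRL, 4.64, 12.2, 10.9 and 8.32 in SU_HX and 12.2, 15.0, 1.65 and 16.2 in Chrysin. It rose 3.58-fold in SU_HX, without overlap (log2 1.84 ± 0.53, adjusted p = 0.0194), and Chrysin rat 3 was the lowest of all libraries. It was not called with CTRL 2, CTRL 3 or SU_HX 3 left out (adjusted p 0.0533 to 0.059) or by limma-voom (0.0858). Per kb of exon Slc16a3 remained scarce beside Slc16a1, the main lactate transporter of heart: its share of the pair was 0.622 to 1.16% in CTRL and 2.05 to 4.37% in SU_HX. Slc16a1 was not called (log2 0.15 ± 0.35, adjusted p = 0.773). Ldhb, the heart form of lactate dehydrogenase and per kb the highest of the members in each group, had a mean of 2989.0 ± 274 CPM in CTRL and 1732.9 ± 759 in SU_HX (SD, n = 4 each). All SU_HX values lay below CTRL (log2 -0.79 ± 0.34, adjusted p = 0.0954), and it was called without SU_HX rat 2 (-1.06, adjusted p = 0.0292). Ldha, the muscle form, overlapped between groups (log2 -0.12 ± 0.29, adjusted p = 0.79), with 55.3% of its reads unique.

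At pyruvate entry all 6 genes had lower mean values in SU_HX, and 2 of them fell, where 14.7% of all genes did. Mpc2, a subunit of the mitochondrial pyruvate carrier, had 54.1 ± 5.23 CPM in CTRL and 29.3 ± 15.3 in SU_HX (SD, n = 4 each) (log2 -0.87 ± 0.31, adjusted p = 0.0487). Pdhb, the beta subunit of pyruvate dehydrogenase, had 381 ± 13.7 CPM in CTRL and 197 ± 91.3 in SU_HX (SD, n = 4 each) (log2 -0.95 ± 0.31, adjusted p = 0.0347). The partner of Mpc2, Mpc1 (log2 -0.68 ± 0.35, adjusted p = 0.164), the alpha subunit Pdha1 (-0.56 ± 0.34, adjusted p = 0.219), the linker protein Pdhx (-0.61 ± 0.32, adjusted p = 0.157) and the acetyltransferase Dlat (-0.75 ± 0.38, adjusted p = 0.149) were not called. Unique reads made up 36.5% for Pdha1 and 63.7% for Dlat. Leaving out single libraries ended the Mpc2 call for each library except SU_HX 2 and Chrysin 3 (adjusted p 0.0546 to 0.131). The Pdhb call ended with each CTRL library and with SU_HX 3 (0.0636 to 0.1). Without SU_HX rat 2, Mpc1 (-0.99, adjusted p = 0.0411), Pdhx (-1.03, 0.00862) and Dlat (-1.15, 0.0236) were called.

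The kinases that switch the dehydrogenase off moved in both directions. Pdk2, an isoform of heart and other oxidative tissues, stood at 211, 179, 213 and 169 CPM in CTRL, 23.4, 107, 36.2 and 72.8 in SU_HX and 107, 101, 209 and 78.8 in Chrysin. It fell 3.22-fold in SU_HX, without overlap (log2 -1.69 ± 0.41, adjusted p = 0.00856). Pdk1, known as a target of hypoxia-inducible factor 1, stood at 224, 238, 250.03 and 193 CPM in CTRL and 20.4, 154, 58.7 and 117 in SU_HX, a 2.58-fold fall (log2 -1.37 ± 0.43, adjusted p = 0.0302). Leaving out each CTRL library, or SU_HX 3, ended the call (adjusted p 0.0529 to 0.0962). Pdk3, a minor isoform in heart, rose 2.03-fold (log2 1.02 ± 0.32, adjusted p = 0.0269), from 5.55, 3.07, 4.07 and 3.54 CPM in CTRL to 7.42, 9.04, 8.996 and 7.39 in SU_HX, a call that ended with CTRL 2, CTRL 3, CTRL 4 or SU_HX 3 left out (0.0642 to 0.0803). Pdk4, induced by fasting and fatty acids, was not called (log2 -0.56 ± 0.34, adjusted p = 0.222). Pdp1, the phosphatase that switches the dehydrogenase back on, fell (log2 -0.86 ± 0.29, adjusted p = 0.0378) although the groups overlapped. Its call ended with 8 of the 12 libraries, each left out singly: CTRL 1, 3 and 4, SU_HX 1, 3 and 4, Chrysin 2 and 4 (adjusted p 0.0507 to 0.111).

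Of the 9 glycogen genes tested, 6 fell and 0 rose, where 14.7% and 16.0% of all genes did. Phkg1, the catalytic subunit of muscle phosphorylase kinase, stood at 9.33, 14.6, 13.9 and 10.4 CPM in CTRL, 3.02, 2.30, 0.643 and 0.693 in SU_HX and 3.96, 1.98, 4.94 and 0.636 in Chrysin. It fell 7.11-fold in SU_HX (log2 -2.83 ± 0.52, adjusted p = 0.0025), and all 8 model libraries lay below CTRL. Its counts were low, so its fold is less exact than that of the abundant genes. Pygb, the brain form of glycogen phosphorylase, which heart also uses, stood at 408, 385, 398 and 374 CPM in CTRL, 91.2, 133, 103 and 124 in SU_HX and 167, 144, 294 and 101 in Chrysin. It fell 3.47-fold and had the smallest adjusted p of the members (log2 -1.79 ± 0.27, adjusted p = 0.00119). Pygb overlaps Abhd12, which had 1002 counts over all libraries against 13454, and reads of the overlap cannot be told apart without strand. Pygm, the muscle phosphorylase, stood at 1443, 1483, 1492 and 1347 CPM in CTRL, 253, 892, 406 and 704 in SU_HX and 803, 796, 1155 and 583 in Chrysin, and fell 2.56-fold (log2 -1.35 ± 0.34, adjusted p = 0.0108). Both phosphorylases were lower in every model library than in CTRL.

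The other 3 falls were in glycogen synthesis and its control. Gys1, the muscle glycogen synthase, had 212 ± 7.63 CPM in CTRL and 98.9 ± 54.5 in SU_HX (SD, n = 4 each) (log2 -1.10 ± 0.30, adjusted p = 0.0161), a call lost without SU_HX rat 3 (adjusted p = 0.0601). Phka1, the muscle regulatory subunit of phosphorylase kinase, fell 1.77-fold (log2 -0.82 ± 0.20, adjusted p = 0.00972). Ugp2, which makes UDP-glucose, fell 1.95-fold (log2 -0.97 ± 0.30, adjusted p = 0.0263), with overlap, a call that ended when CTRL 1, CTRL 2, CTRL 3, SU_HX 3 or SU_HX 4 was left out (0.0584 to 0.0688). Gyg1, the primer of glycogen, and Gbe1, the branching enzyme, lay above CTRL in 3 of 4 SU_HX rats. Gyg1 was at 108, 107, 108 and 91.7 CPM in CTRL and at 43.1, 201, 143 and 205 in SU_HX (log2 0.52 ± 0.35, adjusted p = 0.284). Gbe1 was at 94.8, 85.8, 95.4 and 87.6 CPM in CTRL and at 42.2, 177, 102 and 147 in SU_HX (log2 0.37 ± 0.31, adjusted p = 0.393). Without SU_HX rat 1 both were called (0.82, adjusted p = 0.00594, and 0.64, 0.0146). Pgm1, phosphoglucomutase, was called then as well (0.37, adjusted p = 0.0353). Txnip, which curbs glucose uptake, was not called (log2 -0.31 ± 0.32, adjusted p = 0.481).

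**Figure D3:**
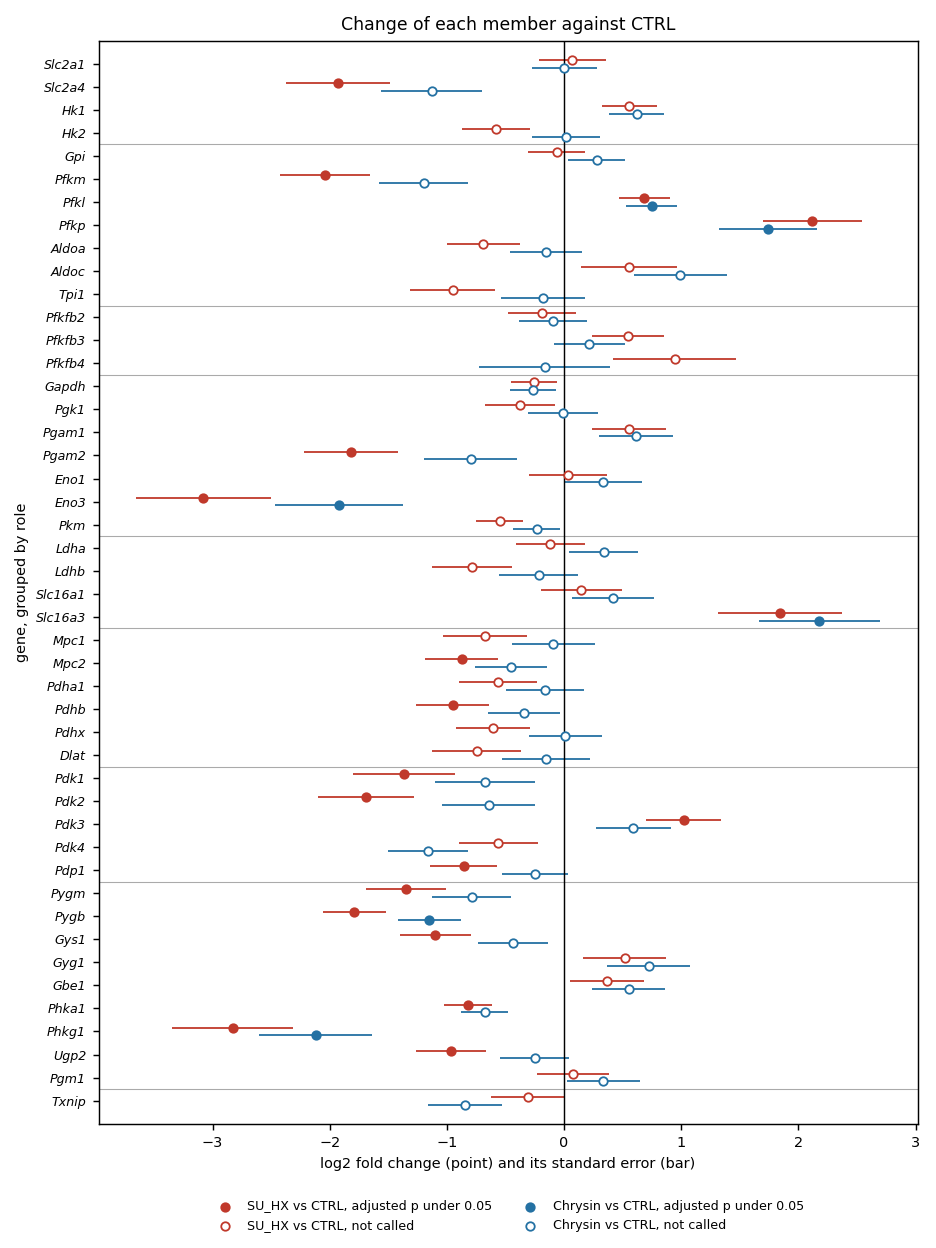
Points are log2 fold changes against CTRL and bars their standard errors, in red for SU_HX and blue for Chrysin; filled points have an adjusted p under 0.05. In SU_HX, 15 filled points lie left of 0 and 4 right of it, and in Chrysin 3 and 3.

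The balance of alternative genes was compared within each library as a ratio of their counts. The 12 pairs were chosen with earlier results of these data known, and Pfkm served in both phosphofructokinase pairs. No share over other gene pairs is given. For 9 of 12 pairs, the log2 ratio was higher in all 4 SU_HX libraries than in any CTRL library: Slc2a1 to Slc2a4, Hk1 to Hk2, Pfkl and Pfkp to Pfkm, Aldoc to Aldoa, Pgam1 to Pgam2, Eno1 to Eno3, Ldha to Ldhb and Slc16a3 to Slc16a1. The exact two-sided permutation test gave p = 0.0286 for each, the smallest that 4 against 4 allows, and 0.0735 after adjustment over 36 tests, so no ratio passed. Slc2a4, Pfkm, Pgam2 and Eno3, each the second gene of a pair, had themselves fallen without overlap, so these ratios partly repeat those falls. The ratio of Aldoc to Aldoa rests on 6 to 23 Aldoc counts per CTRL library and 15 to 23 per SU_HX library. As a share of the pair's CPM per kb of exon, Eno1 made up 32.6, 33.5, 36.9 and 31.0% in CTRL, 68.7, 79.4, 91.6 and 81.8% in SU_HX and 73.4, 80.1, 37.7 and 93.5% in Chrysin. Pgam1 made up 19.7, 17.8, 15.7 and 17.5% of the mutase pair in CTRL, 42.3, 49.8, 62.7 and 52.8% in SU_HX and 36.2, 45.2, 16.3 and 63.2% in Chrysin. In both pairs the muscle form held most of the CPM in CTRL, and Chrysin rat 3 was at or near the CTRL range. On unique reads alone, which leave out most Eno1 reads, Eno1 made up 12.8, 14.9, 15.2 and 11.9% in CTRL and 32.2, 52.8, 75.0 and 53.3% in SU_HX, and the log2 ratio was 2.87 higher in SU_HX (exact permutation test, adjusted p = 0.0857). Slc2a1 made up 5.82 to 7.86% of the transporter pair in CTRL and 16.5 to 35.8% in SU_HX, although its own level was not called.

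The hexokinase pair was the exception among the pairs in that all 3 groups stood apart. Hk1 made up 63.7, 66.0, 59.9 and 59.8% in CTRL, 81.9, 74.1, 79.9 and 80.9% in SU_HX and 73.8, 71.5, 68.4 and 71.8% in Chrysin. Its mean log2 ratio of counts to Hk2 was 0.62 lower in Chrysin than in SU_HX and 0.59 higher than in CTRL (exact two-sided permutation p = 0.0286 for each, adjusted 0.0735). Ldha made up 14 to 16.3% of the dehydrogenase pair in CTRL and 18 to 28.7% in SU_HX. The difference in log2 ratio was 0.65 on the deposited counts and 0.56 on unique reads, where the exact permutation test gave an adjusted p of 0.182. In the phosphorylase pair the groups overlapped: Pygb made up 15.3 to 16.4% in CTRL and 9.38 to 20.0% in SU_HX.

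**Figure D4:**
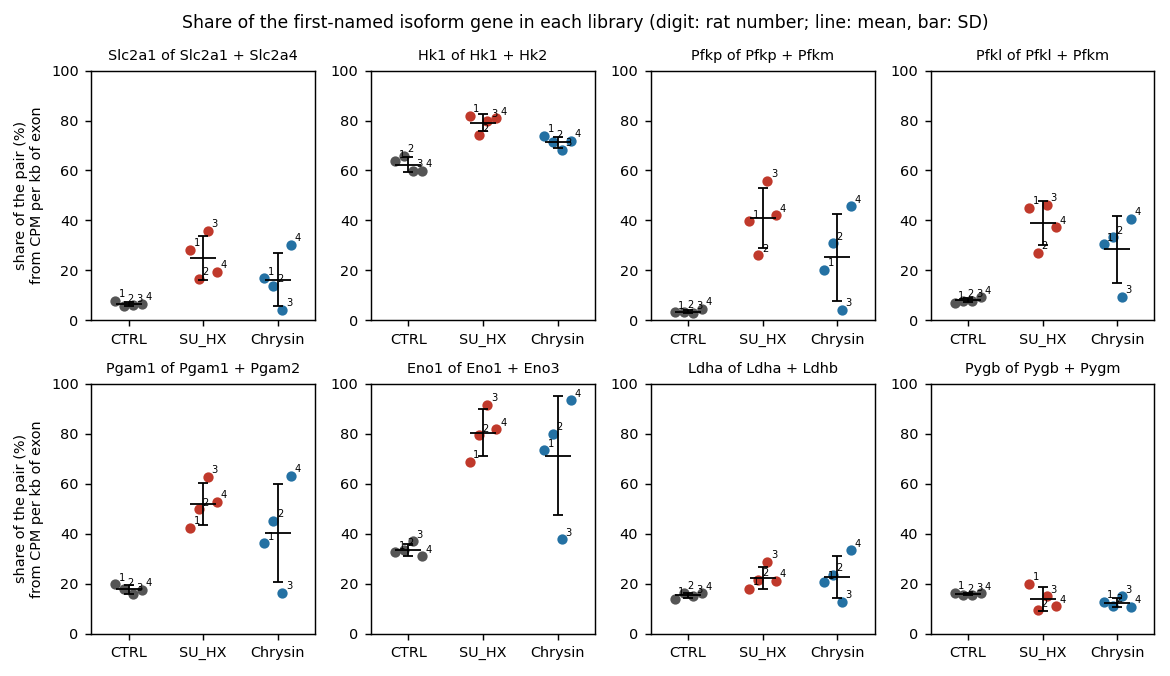
Each point is 1 library with its rat number; the vertical axis is the share in percent of the first-named gene in the pair's CPM per kb of exon, and lines are the mean and SD of 4 libraries. Eno1 moves from 31.0 to 36.9% in CTRL to 68.7 to 91.6% in SU_HX, and only in the Hk1 panel do the 3 groups all stand apart.

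Intron reads, a readout of unspliced RNA from the same libraries, gave 2 rises and 12 falls among 45 members tested, against 8.50% and 11.3% of 12242 genes (19.8%). Of those with both readouts, 10 were called on both kinds of reads, in the same direction: Pfkp rose, and Slc2a4, Pfkm, Eno3, Mpc2, Pdk1, Pdk2, Pygm, Pygb and Phkg1 fell. The share of all genes called on both kinds of reads is not given here. The intron change was log2 -2.06 ± 0.35, adjusted p = 0.00248 for Eno3 and -1.92 ± 0.25, adjusted p = 0.00117 for Pygb. Gapdh, Ldhb, Mpc1 and Gyg1 were called on intron reads alone: Gyg1 rose (0.80, adjusted p = 0.0357) and the others fell by 0.72 to 1.28 log2. The Gyg1 intron call ended with CTRL 1, 2 or 4 or any of SU_HX 2, 3 and 4 left out (adjusted p 0.0747 to 0.101). Without SU_HX rat 1, 5 members rose and 13 fell on intron reads (21.6% of genes called), with Hk1, Gbe1 and Slc16a1 added to the rises. Slc16a3 was not called on intron reads (log2 0.13 ± 0.33, adjusted p = 0.819), with 5.97, 2.91, 2.47 and 4.51 CPM of intron reads in CTRL and 2.52, 4.01, 5.81 and 5.30 in SU_HX. Pgam2 (log2 -0.60 ± 0.23, adjusted p = 0.0752), Pfkl (0.35 ± 0.23, adjusted p = 0.296) and Pdk3 (0.67 ± 0.25, adjusted p = 0.081) were not called either. Whether exon and intron changes differ was not tested.

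**Figure D5:**
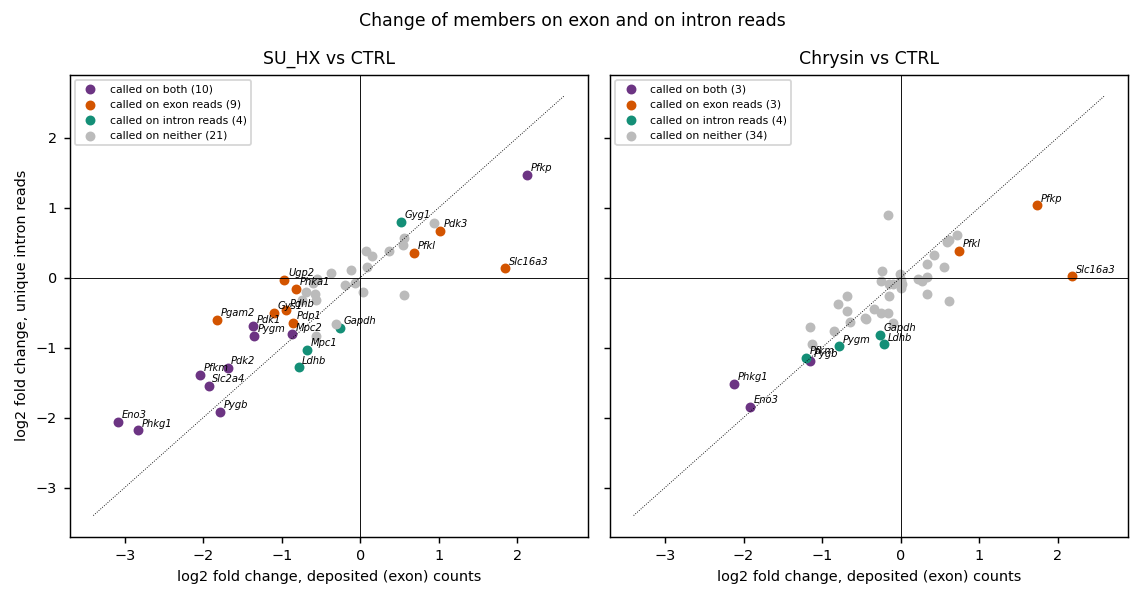
Each point is 1 of the 44 members tested on both readouts; the horizontal axis is the log2 fold change on the deposited counts and the vertical axis that on unique intron reads, with the dotted line at equality. In SU_HX against CTRL 10 members were called on both, and Slc16a3 lies far right with an intron change of 0.13.

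Chrysin against SU_HX asks whether the flavone moved these genes in the model. No member was called, nor was any of the 12304 genes (0.00%) by edgeR; 6 members and 1002 genes (8.14%) had an unadjusted p under 0.05. DESeq2 called 0 members and 2 genes, and limma-voom 0 of either. The 6 were Pfkm, Pgam2, Pdk2, Pygb, Gys1 and Ugp2, all higher in Chrysin, by 0.65 to 1.05 log2, each with an adjusted p of 0.557. Of the 46 members, 38 had a higher value in Chrysin, with a median of 0.41 log2 against -0.05 for all genes. The libraries of the groups overlapped for every member, where 2.30% of all genes stood apart. On intron reads 0 of 45 members and 1 of 12242 genes (0.00817%) were called, and 2 members had an unadjusted p under 0.05 (2.79% of genes). The intron median was 0.014 log2, with 25 of 45 values higher in Chrysin, and -0.094 with 12 of 45 higher when SU_HX rat 1 and Chrysin rat 3 were left out. SU_HX rat 1 bears on these values. Without it, on the deposited counts, 32 of 46 members were higher in Chrysin and the median was 0.16, against 0.006 for all genes. No member then had an unadjusted p under 0.05. The number with such a p was also 0 without SU_HX rat 3, 2 without Chrysin rat 3, 10 without Chrysin rat 4 and 25 without SU_HX rat 2. Eno3 had the largest difference of the members tested, log2 1.16 ± 0.54, adjusted p = 0.557, and was not called. What size of difference could be detected at this spread was not tested.

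Chrysin against CTRL shares its control libraries with SU_HX against CTRL, so the values are given side by side. In Chrysin 3 members rose (Pfkp, Pfkl and Slc16a3) and 3 fell (Eno3, Pygb and Phkg1), against 4.72% and 3.97% of all genes, 8.69% in either direction. The groups stood apart for 5 members that were higher and 10 that were lower, against 10.6% and 12.8% of genes. Pfkp was up 3.33-fold (log2 1.74 ± 0.42, adjusted p = 0.0256), against 2.12 in SU_HX, and Slc16a3 4.54-fold (2.18 ± 0.52, adjusted p = 0.0243), against 1.84. Pfkl was up 1.68-fold (0.75 ± 0.22, adjusted p = 0.0491), against 0.69. Eno3 was down 3.77-fold (log2 -1.92 ± 0.55, adjusted p = 0.0473), against -3.08 in SU_HX, Pygb 2.22-fold (-1.15 ± 0.27, adjusted p = 0.0225), against -1.79, and Phkg1 4.36-fold (-2.12 ± 0.48, adjusted p = 0.0216), against -2.83. The groups overlapped for the 3 that rose, through Chrysin rat 3, and did not for the 3 that fell. Pdk4 lay lower in every Chrysin library, at 34.8, 25.1, 73.8 and 65.8 CPM against 80.0, 132, 105 and 127 in CTRL, and just missed the threshold (log2 -1.16 ± 0.34, adjusted p = 0.0518).

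These 6 calls depended on which libraries were in the fit. Leaving out CTRL 1, 2, 3, 4 or Chrysin 1, 2, 4, each singly, kept 0 or 1 call among members (adjusted p of the 6 genes up to 0.154), while 2.44 to 2.93% of all genes were called. By limma-voom none of the 3 rises was called (adjusted p 0.0606 to 0.115), nor was Eno3 (0.0546). Without Chrysin rat 3, 4 members rose and 8 fell (16.7% of all genes called), without SU_HX rat 1, which shares in the estimate of the spread, 7 and 8 (8.56% and 8.32% of genes, 16.9% in either direction), and without SU_HX rat 2, 3 and 7 (10.8%). Without both SU_HX rat 1 and Chrysin rat 3, 12 rose and 14 fell, against 13.7% and 15.1% of all genes (28.8%). Pfkm (-1.63, adjusted p = 0.000845), Pgam1 (0.78, 0.000855), Gyg1 (0.85, 0.0015), Hk1 (0.72, 0.00159) and Slc2a4 (-1.57, 0.00563) were then among them. On intron reads 0 members rose and 8 fell, against 4.97% and 6.81% of genes (11.8%): Pfkm, Pfkfb1 (not tested on the deposited counts), Gapdh, Eno3, Ldhb, Pygm, Pygb and Phkg1.

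Genes of the same pathways outside the list give the wider frame. Of 103 listed, 97 were in the table and 84 were tested; 16 rose and 27 fell in SU_HX against CTRL, with 16.0% and 14.7% of all genes as the background, also for the smaller lists that follow. Their median was -0.24 log2, against 0.07 for all genes. Among transporters and hexokinases, 3 rose and 1 fell of 7: the leukocyte hexokinase Hk3 (log2 2.31 ± 0.76, adjusted p = 0.0351), the transporter Slc2a3 (0.83) and the inositol transporter Slc2a13 (0.64) rose, and Slc2a12, a transporter of heart and muscle, fell (-0.96). Of 7 genes linked to glycolysis and lactate, Uevld (0.73) and Bpgm, which makes 2,3-bisphosphoglycerate (0.62), rose, and 4 fell, among them Ldhd, the D-lactate dehydrogenase (-1.96 ± 0.45, adjusted p = 0.00707), Tigar, a phosphatase acting on fructose 2,6-bisphosphate (-0.99), and Gpd1l (-0.85). Of 13 around pyruvate dehydrogenase, Emb, a chaperone of monocarboxylate transporters (2.81 ± 0.62, adjusted p = 0.00572), and the malic enzyme Me2 (0.73) rose. Among the 5 that fell were the phosphatase Pdp2 (-1.90 ± 0.40, adjusted p = 0.00438), its regulator Pdpr (-1.0) and Me3 (-1.23).

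Of 18 further glycogen genes, 2 rose and 7 fell. The falls with the smallest adjusted p were Ppp1r3d (log2 -1.98 ± 0.26, adjusted p = 0.000895) and Ppp1r3a (-1.61), which bring protein phosphatase 1 to glycogen, and Nhlrc1 (-1.61), the malin gene of Lafora disease. The liver phosphorylase Pygl (2.13 ± 0.54, adjusted p = 0.0104) and Pgm2 (0.93) rose. In side branches that draw on glucose and its phosphates, 4 of 15 pentose, hexosamine and polyol genes rose and 3 fell. Uap1 (1.98 ± 0.23, adjusted p = 0.000843) and Gfpt2 (1.65 ± 0.26, adjusted p = 0.00132) of hexosamine synthesis were among those that rose. The polyol enzymes Akr1b1 (-0.99) and Sord (-0.75) and Rpia of the pentose pathway (-0.74) fell. Uap1 and Gfpt2 also rose in Chrysin against CTRL (1.52 and 1.12). Of 24 regulators 3 rose and 7 fell: Tbc1d1, a regulator of glucose transporter traffic (0.98 ± 0.14, adjusted p = 0.000992), the transcription factor Myc (1.78 ± 0.31, adjusted p = 0.002) and the insulin receptor substrate Irs2 (0.87) rose, and the AMP-kinase subunit Prkab1 (-1.31 ± 0.21, adjusted p = 0.00151), Tbc1d4, which holds Slc2a4 inside the cell (-0.99), and the nuclear receptor Esrra (-1.33) fell. None of the 84 was called in Chrysin against SU_HX.

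Promoters in the RefSeq table, 300 bases each, were matched to 43 of the 47 members. ACGTG on either strand was present in 23 of the 43 (53.5%), against 20.9% of 27457 genes in that table and 26.5% of the 9131 tested genes with a promoter. GCGTG was present in 21 (48.8%), against 32.4% and 51.5%. CACGTG, each copy of which also holds ACGTG, was present in 6 (14%), against 7.08% and 9.75%, and TATAAA in 5 (11.6%), against 15.3% and 7.43%. AAGGTCA was present in 2 and the MEF2 consensus in 1. ACGTG was present in 7 of the 13 matched members that fell in SU_HX, 1 of the 4 that rose and 15 of the 25 not called. Median GC content was 61.3% in member promoters, 61.0% in those of tested genes and 51.7% in all.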

How the data were processed

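The deposited table holds raw counts per gene with unique exon, total exon and unique intron reads, per the file headers; no source used here names the aligner, the counter, the build, the annotation or the strand setting. Exon counts of genes with near-identical copies include shared reads, per the total and unique columns the authors deposited. The 310 columns also hold the authors' own test results, which were not used here. Counts were fitted for all 12 libraries together with edgeR 4.0.16 in R 4.3.3 (TMM scaling, filterByExpr by group, robust quasi-likelihood F test, two-sided, Benjamini-Hochberg at 0.05 over all genes tested); the same fit was run on unique intron reads. Standard errors were taken as the size of the log2 fold change over the square root of F. Pair ratios were log2 of (count + 0.5) for each gene, tested by exact permutation and adjusted over 12 pairs in 3 comparisons. Alternatives used limma 3.58.1 (voom), DESeq2 1.42.0, relative-log scaling, other filters, unique reads, only the groups compared, replicate blocks and each library left out in turn; the scripts were tested on simulated data. Library totals were 4712077 to 5443100 counts in CTRL, 4036489 to 5797763 in SU_HX and 3997306 to 6009798 in Chrysin. No pair of libraries of the same group agreed within sampling noise, and pairs from different groups were not compared in this way. Starts in the table count from 0 and 1 was added. The members, pairs, pathway lists and marker lists were chosen with earlier results of these data known. All members are named; of the other pathway genes, the 3 rises and 3 falls with the smallest adjusted p in each sublist, except 1 gene that is not reported here. Promoter letters were searched in RefSeq's GRCr8 table, with the MEF2 consensus and AAGGTCA added after seeing the data.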

Additional observations from a re-analysis of the deposited data

Results flagged for a closer look

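Of 138 sets of 4 libraries, 1 for each member and group, 6 held a library far from the other 3 by Dixon's test at its 95% value, and chance flags about 1 in 20. In CTRL, Pfkp stood at 27.2 CPM in rat 4 against 19.1 to 20.3 in the others, Pfkfb2 at 72.2 in rat 1 against 34.1 to 35.6, Pdhx at 149 in rat 3 against 127.6 to 131.1, and Gyg1 at 91.7 in rat 4 against 107.0 to 108.2. In Chrysin, Aldoc stood at 1.92 CPM in rat 3 against 5.77 to 6.20, and Pfkfb3 at 40.4 in rat 1 against 50.2 to 52.1. None of the 6 was in SU_HX.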

How the results depend on the processing

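For SU_HX against CTRL, Slc2a4, Pfkm, Pfkp, Pgam2, Eno3, Pdk2, Pygm, Pygb, Phka1 and Phkg1 kept their call and direction under all 21 alternatives. The share of all called genes that did so is not given here, so this is not a trait shown to be particular to the members. Leaving out 1 library gave 10 (without SU_HX rat 3) to 29 (without SU_HX rat 2) members called, against 19, and 2486 to 4780 genes, against 3776. For Chrysin against CTRL the corresponding ranges were 0 to 15 members, against 6, and 303 to 2092 genes, against 1069. On intron reads they were 4 to 17 members, against 8, and 4.15 to 17.7% of genes, against 11.8%. In this comparison on exon reads, limma-voom called 4 members (8.7%), with 0 rises, against 8.41% of genes. The fit with no filter called 4 (8.51%), against 4.81%. DESeq2 called 10 members and 1733 genes (21.7% and 14.1%). A fit of the compared groups alone called 19 and 2599 (42.2% and 21.9%). Leaving out both SU_HX rat 1 and Chrysin rat 3 gave 26 and 3564 (56.5% and 28.8%). With both left out, 22 members were called on intron reads (48.9%), against 23.6% of genes. The cause of these shifts was not tested. For Chrysin against SU_HX, DESeq2 called 2 genes, and no alternative called a member. No called value changed sign; sign changes between settings where neither passed the threshold are not counted.

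Same-numbered libraries did not deviate together: over 12 pairs of libraries r ran from -0.382 to 0.0745. For libraries of different number it reached 0.486. Whether libraries of the same number shared handling was not tested. With the replicate block 18, 0 and 4 members were called in the 3 comparisons (SU_HX against CTRL, Chrysin against SU_HX, Chrysin against CTRL), 3242, 0 and 624 genes, and 13, 0 and 8 members on intron reads. On intron reads 17.9, 0 and 9.41% of all genes were called with the block. The exact permutation test of the pair ratios cannot go below p = 0.125 within numbers, nor below 0.0571 with 1 library left out, so calls are not counted there.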
